A study of Mus musculus with 32 samples.

Results

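Chemokines and their receptors were followed through RNA sequencing of cells sorted from mouse gliomas. The set was given as a list of 34 gene symbols, and each was found as a row of the deposited count table of 23337 genes. It holds 24 ligands (Ccl2, Ccl3, Ccl4, Ccl5, Ccl6, Ccl7, Ccl8, Ccl9, Ccl11, Ccl12, Ccl17, Ccl22, Ccl24, Ccl25, Cxcl1, Cxcl2, Cxcl3, Cxcl5, Cxcl12, Cxcl13, Cxcl14, Cxcl16, Cx3cl1 and Xcl1) and 10 receptors (Ccr1, Ccr3, Ccr6, Ccr8, Ccr9, Cxcr2, Cxcr3, Cxcr4, Cxcr6 and the atypical receptor Ccrl2). The choice was by name, among genes that were detected, and was made with earlier results of these data known. In both sorts and at all 3 stages the question was which sort carried a ligand, which carried its receptor, and how each changed with stage.

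Chemokines are small secreted proteins that draw leukocytes along a gradient by binding G protein-coupled receptors on the cell surface. Most receptors bind several ligands and most ligands bind several receptors, and the families are named by the spacing of their conserved cysteines (CC, CXC, CX3C and XC). In glioma, CC chemokines made by macrophages and microglia are known as attractants of blood monocytes, and the receptors on a sorted population tell which of these signals its cells can read.

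Tumours were started in XFM mice of 5 to 6 weeks by injecting DF-1:PDGFB cells, a chicken fibroblast line that delivers the platelet-derived growth factor B gene, into the brain. Mice entered treatment at a tumour volume of 20 to 40 mm3 and received vehicle or BLZ945, which blocks the colony-stimulating factor receptor CSF-1R of macrophages, every day until symptoms or 26 weeks of age. From each digested tumour, the PDGFRA+ fraction was taken as the tumour cell (TC) sort, and cells with CD11b and without Gr1 as the sort of tumour-associated macrophages and microglia (TAM). All mice thus shared the strain, the injected cells and the PDGFB transgene, and a PDGFRA gate also admits other cells that bear this receptor or stick to those that do.

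Vehicle TAM and TC came from 5 mice each (54359, 54363, 57098, 57682 and 64247). Endpoint, called dormant in the labels, stands for 6 mice (49823, 49825, 49830, 49831, 49843 and 49845) in each sort. Rebound TAM came from 49041, 49059, 49827, 49834 and 49849, and Rebound TC from 49041, 49059, 49692, 49827 and 49849. The labels do not define Rebound further, and they list BLZ945 as the agent of every library, so treatment was read from the stage. Values of 5 mice are given below in the order of these lists, and values of the 6 Endpoint mice as the lowest, the median and the highest. Levels within a sort are in CPM, a gene's counts relative to the library total after scaling within that sort. Each p is an edgeR quasi-likelihood p with Benjamini-Hochberg adjustment over all genes tested, and a change is called where it is under 0.05.

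Total counts ran from 9543888 to 30383148 in TAM and from 4180176 to 22989777 in TC libraries, so 3 counts summed over the 6 TC Endpoint libraries stood for 0.0651 CPM and 6 counts for 0.13 CPM. The 8 myeloid markers (Csf1r, Itgam, Aif1, C1qa, C1qb, Cd68, Tyrobp and Fcgr1) summed to 14759 to 45758 CPM in TAM and to 22.6 to 7097 CPM in TC libraries. The 8 tumour cell markers, among them Pdgfra and Olig2, summed to 2102 to 7307 CPM in TC Vehicle, 2002 to 6592 in TC Rebound and 253 to 1998 in TC Endpoint. The TC Endpoint libraries also held choroid plexus and ependymal markers at 6433 to 219282 summed CPM. Their myelinating oligodendrocyte markers summed to 21974 to 33876 CPM, against 2510 to 17632 in TC Vehicle and 371 to 17592 in TC Rebound. B cell markers summed to 7.5 to 878 CPM in TC Endpoint, against 0.355 to 6.94 in TC Vehicle and 0 to 48.3 in TC Rebound. The 9 T and NK cell markers (among them Cd3d, Cd3e, Cd2 and Lck) summed to 3962 CPM in the TC Rebound library of 49827 and to 5026 to 6482 CPM in the TC Endpoint libraries of 49823, 49825, 49830 and 49831. In every other TC library they summed to at most 39.2 CPM, and in TAM only the Rebound libraries of 49041 (114 CPM), 49059 (145 CPM) and 49849 (38.5 CPM) exceeded 22.1 CPM. Counts of called members are also given without these 8 libraries, which were picked by a higher cut-off in TC than in TAM. The TAM library of 49849 (38.5 CPM) was thus left out, while a TC library with 39.2 CPM was kept.

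The genes of the set lie largely in clusters, given here by their GENCODE positions on GRCm38. On chromosome 11, Ccl2 (82035571 to 82037453), Ccl7 (82045712 to 82047525), Ccl11 (82057823 to 82062955), Ccl12 (82101845 to 82103400) and Ccl8 (82115185 to 82116799) follow each other on the plus strand. Further along the same chromosome stand Ccl5 (83525778 to 83530518), Ccl9 (83572919 to 83578636), Ccl6 (83587882 to 83593087) and Ccl3 (83647844 to 83649355) on the minus strand and Ccl4 (83662584 to 83664683) on the plus strand. Cxcl5, Cxcl3, Cxcl1 and Cxcl2 neighbour each other on the plus strand of chromosome 5.

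RefSeq (GRCm38.p6) gave the bases before the gene start for 26 of the 34 genes, with none for Ccl2, Ccl4, Ccl5, Ccl7, Ccl11, Ccl24, Cxcl5 and Cxcl16. The windows of the neutrophil attractants Cxcl1, Cxcl2 and Cxcl3 are shown first, together with those of Ccr1 and Ccrl2, which fell in TAM at Endpoint. Cxcl1 was highest on average in TC Vehicle and Cxcl2 in TAM Rebound. Cxcl3 had at most 22 counts in a group and was not tested, and the 3 genes were not tested against each other. Each line is the 150 bases before the start, read 5′ to 3′ on the gene's strand, and capitals mark matches to the NF-kB consensus, searched on both strands with overlaps kept. Positions are chr5:90891095-90891244 (+ strand) for Cxcl1, chr5:90903749-90903898 (+ strand) for Cxcl2, chr5:90785951-90786100 (+ strand) for Cxcl3, chr9:123968693-123968842 (- strand) for Ccr1 and chr9:111057519-111057668 (- strand) for Ccrl2.
Cxcl1: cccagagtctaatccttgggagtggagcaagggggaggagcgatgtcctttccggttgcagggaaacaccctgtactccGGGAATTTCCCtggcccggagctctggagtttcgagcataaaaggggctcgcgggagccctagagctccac
Cxcl2: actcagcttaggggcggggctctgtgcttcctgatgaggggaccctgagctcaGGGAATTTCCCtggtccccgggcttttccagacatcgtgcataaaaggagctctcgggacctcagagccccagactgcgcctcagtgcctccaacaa
Cxcl3: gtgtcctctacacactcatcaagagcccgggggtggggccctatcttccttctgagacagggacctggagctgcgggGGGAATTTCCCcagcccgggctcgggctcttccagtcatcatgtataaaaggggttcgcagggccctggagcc
Ccr1: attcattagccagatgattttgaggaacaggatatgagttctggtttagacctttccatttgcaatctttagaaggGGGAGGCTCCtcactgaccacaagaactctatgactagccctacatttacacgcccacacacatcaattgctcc
Ccrl2: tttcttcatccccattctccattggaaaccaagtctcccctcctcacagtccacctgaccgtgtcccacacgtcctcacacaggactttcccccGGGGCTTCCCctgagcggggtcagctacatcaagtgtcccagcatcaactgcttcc
The same 11 letters stand in capitals in Cxcl1, Cxcl2 and Cxcl3. Of the 40 bases around that match, Cxcl1 and Cxcl2 shared 27 in ungapped comparison, Cxcl1 and Cxcl3 21, and Cxcl2 and Cxcl3 18. The NF-kB consensus was found within 250 bases before the start in 7 of the 26 genes (26.9%: Ccl9, Cxcl1, Cxcl2, Cxcl3, Ccr1, Ccr3 and Ccrl2) and in 7.01% of 27025 promoters of that length. For this and the motifs below, the set used the start nearest the GENCODE gene start. The share over all promoters used the first listed start of each gene, so the windows were chosen by unlike rules.

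The monocyte attractants Ccl12 and Ccl8 and the macrophage inflammatory protein Ccl3, which rose in TAM from Endpoint to Rebound, had no NF-kB match in their windows. Their 250 bases before the start are shown with the PU.1 core GAGGAA in capitals on either strand. Positions are chr11:82101595-82101844 (+ strand) for Ccl12, chr11:83649379-83649628 (- strand) for Ccl3 and chr11:82114935-82115184 (+ strand) for Ccl8.
Ccl12: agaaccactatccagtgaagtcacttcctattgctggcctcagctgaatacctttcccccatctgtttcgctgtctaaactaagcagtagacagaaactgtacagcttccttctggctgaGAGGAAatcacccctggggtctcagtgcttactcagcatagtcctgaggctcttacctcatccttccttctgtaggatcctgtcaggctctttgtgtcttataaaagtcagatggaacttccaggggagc
Ccl3: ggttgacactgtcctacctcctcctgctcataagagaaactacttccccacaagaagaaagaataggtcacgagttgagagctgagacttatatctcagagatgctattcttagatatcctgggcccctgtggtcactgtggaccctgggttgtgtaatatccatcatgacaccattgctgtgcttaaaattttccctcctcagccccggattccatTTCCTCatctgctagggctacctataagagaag
Ccl8: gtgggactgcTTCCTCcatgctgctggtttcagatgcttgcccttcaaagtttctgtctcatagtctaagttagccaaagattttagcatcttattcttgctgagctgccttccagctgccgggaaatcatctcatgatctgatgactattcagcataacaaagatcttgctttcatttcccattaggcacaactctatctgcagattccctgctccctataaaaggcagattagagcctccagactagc
GAGGAA was found in 10 of the 26 windows (38.5%: Ccl3, Ccl8, Ccl12, Ccl17, Cx3cl1, Ccr1, Ccr3, Ccr6, Cxcr2 and Cxcr3) and in 23.1% of all promoters. Of the other motifs searched on both strands, TGANTCA was found in Ccl9 and Ccr3 (7.69% against 6.87% of all promoters), TTCNNNGAA in Ccl17, Cxcl14 and Ccr6 (11.5% against 7.18%), and an interferon-response-like motif in Cxcl14 alone (3.85% against 3.04%). TGACGTCA was in none of the 26 and in 1.62% of all promoters. These matches describe letters and not bound sites.

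Per kilobase of exon, and on the scale of CPM normalised over all 32 libraries, Ccl12 and Cxcl13 stood highest in TAM. Ccl12, a mouse monocyte attractant of the Ccl2 cluster, had a mean of 2487 CPM per kb in TAM Vehicle, 282 in TAM Endpoint and 1708 in TAM Rebound. Cxcl13, the B cell attractant read by Cxcr5, had 1981, 2948 and 1716 CPM per kb. Ccl6, a myeloid ligand of Ccr1, followed with 444, 201 and 912 CPM per kb. In TC Vehicle the order was led by Ccl12 (70.6 CPM per kb), Cxcl13 (57.3), Cxcl14 (26.1) and Cxcl1 (13.9). In TC Endpoint it was led by Ccl5 (2314), Cxcr6 (442), Cxcl13 (424) and Cxcr3 (69.4), and in TC Rebound by Ccl5 (380), Cxcr6 (92.2), Ccl11 (41.5) and Cxcr3 (16.2). The TC Rebound levels of Ccl5, Cxcr6 and Cxcr3 came from the library of 49827. In Vehicle, the TC means of Ccl12 and Cxcl13 were 2.84% and 2.89% of the TAM means, and that of the summed myeloid markers was 1.55%. The part of myeloid cells in these TC levels was not tested. Among receptors in TAM Vehicle, Ccr6 (70.0 CPM per kb), Ccr1 (67.8) and Ccrl2 (24.8) stood above Ccr3 (9.21) and Cxcr4 (7.27). Ccr6 and Ccr1 did not differ beyond the spread of the mice.

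**Figure D1:**
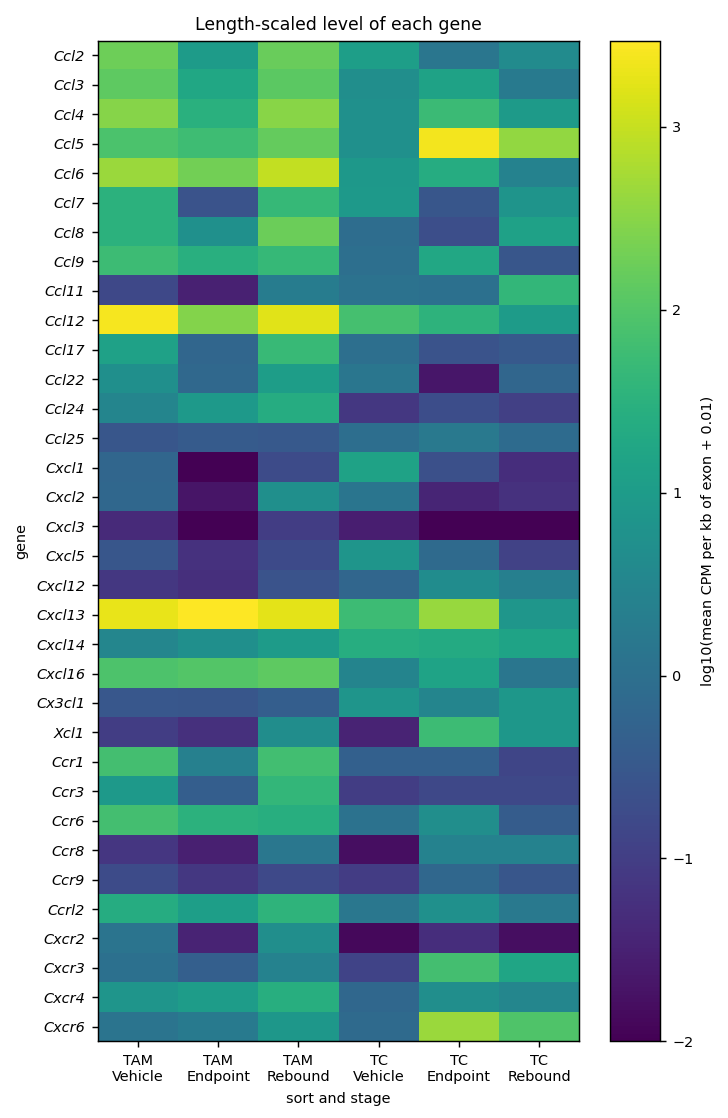
Colour gives log10 of the mean CPM per kb of exon (plus 0.01) for each of the 34 genes (rows) in the 6 groups of sort and stage (columns). The TAM columns are led by Ccl12 and Cxcl13, and the TC Endpoint column by Ccl5.

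In TAM, the chemokines that attract monocytes and the receptors Ccr1 and Cxcr2 were at their lowest in Endpoint tumours and returned in Rebound tumours. Of 28 members tested, 13 fell from Vehicle to Endpoint and 0 rose, where 33% of 13315 genes were called (13.7% higher and 19.3% lower). From Endpoint to Rebound 18 rose and 0 fell, where 17.6% of genes were called (11.7% higher and 5.9% lower). From Vehicle to Rebound 6 rose and 1 fell, where 14.7% were called (7% higher and 7.73% lower). The median log2 change of the tested members was -1.04, 2.28 and 0.8 in these contrasts, against -0.03, 0.02 and 0.02 over all genes. The contrasts share libraries, and members that are too low in TAM (Ccl11, Cxcl1, Cxcl3, Cxcl5, Xcl1 and Ccr8) were not tested.

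**Figure D2:**
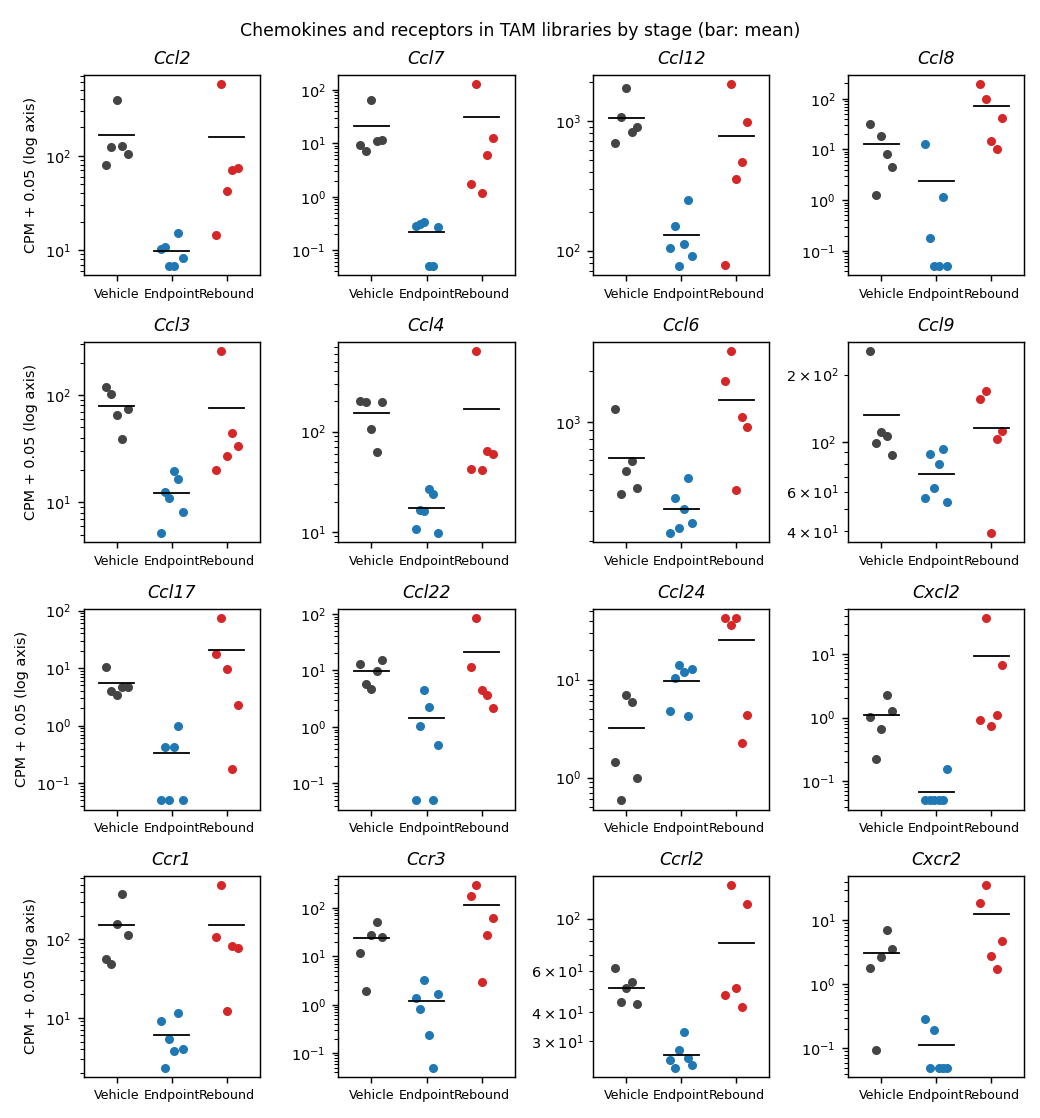
Points are CPM (plus 0.05, log axis) of single TAM libraries in Vehicle (5), Endpoint (6) and Rebound (5) for 16 genes, and bars are group means. For Ccl2, Ccl7, Ccl12, Ccl3, Ccl4 and Ccr1 every Endpoint point lies below every Vehicle point, and in Rebound the mouse 49059 is the highest.

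Among the monocyte attractants, Ccl2, the best known ligand of Ccr2, stood at 80.1, 124.2, 392.3, 126.6 and 104.5 CPM in the Vehicle TAM. At Endpoint the lowest was 6.67, the median 9.14 and the highest 15.3 CPM, and the Rebound mice had 14.3, 581.4, 42.6, 70.5 and 73.7 CPM. All Endpoint mice lay below all Vehicle mice, whereas Rebound ranged from an Endpoint-like level in 49041 to the highest value of the TAM sort in 49059. Ccl2 fell by 4.11 on the log2 scale (SE 0.803, adjusted p = 0.00139) from Vehicle to Endpoint and was 4.02 higher (SE 0.801, adjusted p = 0.00341) in Rebound than at Endpoint. Without the Vehicle library of 57098 the change to Endpoint was -3.51, and without the Rebound library of 49059 the rise was 2.39. In a bulk sort, fewer cells of a type and less RNA per cell cannot be told apart, and this holds for every level given here.

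Ccl7, another monocyte attractant and the direct neighbour of Ccl2, stood at 9.28, 6.98, 64.4, 11.1 and 11.3 CPM in Vehicle. Its Endpoint values ran from 0 (median 0.226) to 0.284 CPM, and the Rebound mice had 1.65, 130.8, 1.1, 6.06 and 12.5 CPM. Endpoint did not overlap with either other stage. Ccl7 fell by 6.81 on the log2 scale (SE 1.4, adjusted p = 0.00191) to Endpoint and was 7.37 higher (SE 1.41, adjusted p = 0.00265) in Rebound. The rise was 4.88 without Rebound 49059, and the change to Endpoint was -5.72 without Vehicle 57098.

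Ccl12, the most abundant of this group per length, was counted at 669.4, 1068, 1796, 819.6 and 890.7 CPM in Vehicle. Endpoint ran from 75.8 (median 108.6) to 244.9 CPM and Rebound gave 78.1, 1929, 354.9, 484 and 970.4 CPM. The highest levels were thus seen in Vehicle mice 54363 and 57098 and in Rebound 49059, and Rebound 49041 lay within the Endpoint range. The log2 change was -3 (SE 0.589, adjusted p = 0.00129) to Endpoint and 2.55 (SE 0.579, adjusted p = 0.00709) from there to Rebound, or 1.86 without Rebound 49059.

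Ccl8, the last gene of the cluster and also a monocyte attractant, had 31.7, 1.2, 18.4, 7.97 and 4.54 CPM in Vehicle. At Endpoint it ran from 0 (median 0.0631) to 12.9 CPM and in Rebound it was 198.1, 99, 14.3, 10.1 and 41 CPM. The Endpoint library of 49823 alone overlapped with Rebound. The rise from Endpoint to Rebound was 4.9 (SE 1.38, adjusted p = 0.025), and it was not called without Rebound 49041 (4.09, adjusted p = 0.0598) or 49059 (adjusted p = 0.0528). The rise was 8.26 without Endpoint 49823. The difference between Vehicle and Endpoint was not called (adjusted p = 0.167).

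Ccl3 and Ccl4, macrophage inflammatory proteins, moved alike. Ccl3 stood at 118.9, 102.2, 64.5, 39 and 73.3 CPM in Vehicle, from 5.08 (median 11.6) to 19.5 at Endpoint, and at 19.7, 257.6, 26.9, 43.8 and 33.1 in Rebound. Ccl4 stood at 200.4, 198.2, 107.3, 63.3 and 196.1 CPM in Vehicle, from 9.62 (median 16.3) to 26.6 at Endpoint, and at 42.7, 639.8, 41.1, 64.2 and 59.6 in Rebound. Neither gene overlapped between Endpoint and another stage, and 49059 was far above the other Rebound mice. Ccl3 fell by 2.73 on the log2 scale (SE 0.619, adjusted p = 0.00351) and rose by 2.67 (SE 0.618, adjusted p = 0.00789). Ccl4 fell by 3.16 (SE 0.715, adjusted p = 0.0037) and rose by 3.3 (SE 0.719, adjusted p = 0.00574). Without Rebound 49059 the rises were 1.37 for Ccl3 and 1.6 for Ccl4, and both remained called.

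Ccl6, a myeloid chemokine of mice that binds Ccr1, had 1203, 380.5, 515, 593.3 and 409.6 CPM in Vehicle. It ran from 222.7 (median 283.2) to 469.9 CPM at Endpoint and was 1738, 2632, 399.2, 1070 and 939.3 CPM in Rebound. Ranges of Vehicle and Endpoint overlapped, with a log2 difference of -1 (SE 0.386, adjusted p = 0.0548), and the rise to Rebound was 2.13 (SE 0.394, adjusted p = 0.00146). Ccl9, its neighbour with the same receptor, had 255.4, 98.8, 111.2, 106 and 87.7 CPM in Vehicle, 54.1 (median 70.9) to 92.9 CPM at Endpoint and 155.8, 169.2, 39, 103.2 and 111.8 CPM in Rebound. Vehicle 54359 was the highest of its group for both genes. The change of Ccl9 to Endpoint was -0.87 (SE 0.321, adjusted p = 0.0448), and it was not called when any of 8 single libraries was left out (adjusted p = 0.221 without Vehicle 54359).

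Chemokines read by Ccr4 and Ccr3 split. Ccl17, a ligand of Ccr4 made by dendritic cells and macrophages, had 10.6, 4, 3.38, 4.59 and 4.67 CPM in Vehicle, 0 (median 0.187) to 0.943 at Endpoint and 17.8, 74.3, 9.76, 0.129 and 2.22 in Rebound. Vehicle and Endpoint did not overlap, and Rebound 49834 lay within the Endpoint range. Ccl17 fell by 4.33 on the log2 scale (SE 1.21, adjusted p = 0.0126) and rose by 6.27 (SE 1.27, adjusted p = 0.00343), or by 4.78 without Rebound 49059. Without Endpoint 49843, the highest of its group, these changes were -5.25 and 7.19. Ccl22, the other Ccr4 ligand, had 13.2, 5.82, 4.71, 9.71 and 15.3 CPM in Vehicle, 0 (median 0.721) to 4.54 at Endpoint and 11.3, 84.8, 4.54, 3.61 and 2.11 in Rebound. Its rise to Rebound was 3.98 (SE 1.13, adjusted p = 0.0253) and was not called without Rebound 49059 (1.99, adjusted p = 0.152) or Endpoint 49825 or 49845 (adjusted p = 0.0522 and 0.053), and was 4.92 without Endpoint 49830. Ccl22 at Endpoint lay below Vehicle in every mouse, with a log2 difference of -2.85 that missed the threshold (SE 1.1, adjusted p = 0.0589). The 7 dendritic cell markers, which include Flt3, Zbtb46 and Ccr7, summed to 80.2 to 399.6 CPM in Vehicle TAM, 47 to 115.5 at Endpoint and 111.4 to 458.7 in Rebound, with 49059 the highest. Their part in the levels of Ccl17 and Ccl22 was not tested.

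Ccl24, an eotaxin that acts on Ccr3, went the other way at Endpoint. It had 1.38, 0.533, 6.9, 5.87 and 0.943 CPM in Vehicle, 4.24 (median 11.1) to 14.2 at Endpoint and 42.7, 35.9, 42.5, 2.19 and 4.33 in Rebound. The 3 Rebound mice 49041, 49059 and 49827 stood above every Vehicle and Endpoint mouse, and the other 2 lay within the Vehicle range. Rebound exceeded Vehicle by 3.01 on the log2 scale (SE 0.84, adjusted p = 0.0263). That call was lost when Vehicle 54359, 54363 or 64247 or Rebound 49041 or 49827 was left out (adjusted p from 0.0508 to 0.0645). The Endpoint level did not differ from Vehicle by the test (log2 difference 1.62, SE 0.784, adjusted p = 0.126).

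Cxcl2, a ligand of Cxcr2 whose window is printed above, was rare in TAM. Vehicle mice had 0.974, 0.178, 0.611, 2.24 and 1.24 CPM, Endpoint held 2 counts in 1 of 6 libraries, and Rebound mice had 0.877, 36.7, 0.688, 1.03 and 6.55 CPM. Every Vehicle and Rebound mouse lay above every Endpoint mouse. Over the pooled counts Vehicle was 48.3 times Endpoint (95% counting interval 8.52 to 1922) and Rebound 418 times (74.7 to 16567), where the counts of BLZ945 libraries, all even, were halved for the interval, and both differences were called (adjusted p = 0.00655 and 0.000566). Rebound also exceeded Vehicle by 3.12 on the log2 scale (SE 0.992, adjusted p = 0.0429), but by 1.12 without Rebound 49059 (adjusted p = 0.422). Leaving out Vehicle 54359, 54363, 57098 or 64247 or Rebound 49849 also ended that call (adjusted p from 0.0571 to 0.0907). The related Cxcl1, Cxcl3 and Cxcl5 had at most 3.2, 0.704 and 1.38 CPM in any TAM library, and Cxcl1 and Cxcl3 had no count in the 6 Endpoint libraries (upper limit 0.0338 CPM from 3 counts over the group, or 0.0676 CPM from 6 counts, since these libraries hold even counts only).

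Cxcl16, the membrane-anchored ligand of Cxcr6, stayed high in TAM throughout. It had 288.3, 237.4, 159.3, 156.9 and 180.7 CPM in Vehicle, 173.9 (median 287.6) to 341.2 at Endpoint and 233.7, 329.3, 314.2, 407.7 and 377.6 in Rebound. Ranges overlapped, and the excess of Rebound over Vehicle, 0.701 on the log2 scale (SE 0.229, adjusted p = 0.0459), was lost when any of 8 single libraries was left out (adjusted p from 0.0659 to 0.113). Its exons overlap those of Zmynd15, and reads of the pair cannot be told apart without strand. Cxcl13 ran from 23.4 to 3731 CPM in Vehicle, 816.7 to 6555 at Endpoint and 397.5 to 3454 in Rebound, with no called change (adjusted p = 0.554, 0.96 and 0.571 for Endpoint against Vehicle, Rebound against Vehicle and Rebound against Endpoint). Vehicle 64247 alone gave the low value, and the other 4 Vehicle mice had at least 1051 CPM. Cxcl14, which is made widely in epithelia and brain, had 1.19 to 8.4 CPM in Vehicle TAM and 7.02 to 29.8 in Rebound TAM, a difference of 1.73 (SE 0.495, adjusted p = 0.0258). It was lost without Vehicle 54363 or 57682 or Rebound 49834 (adjusted p = 0.0648, 0.0507 and 0.0821).

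The receptors Ccr1 and Cxcr2 followed the ligands. Ccr1, which reads Ccl3, Ccl5, Ccl6, Ccl7 and Ccl9, had 56.8, 48.5, 157.3, 377.5 and 112.9 CPM in Vehicle. At Endpoint it ran from 2.27 (median 4.63) to 11.5 CPM, and in Rebound it was 108.6, 491.5, 12.2, 82.2 and 77 CPM. Endpoint did not overlap with the other stages, and Rebound 49827 stood just above it. Ccr1 fell by 4.66 on the log2 scale (SE 0.842, adjusted p = 0.000797) and rose by 4.69 (SE 0.843, adjusted p = 0.00174), with a change of -3.96 without Vehicle 57682 and a rise of 3.56 without Rebound 49059.

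Cxcr2, the neutrophil receptor for Cxcl1, Cxcl2, Cxcl3 and Cxcl5, had 1.74, 0.0444, 2.66, 7.04 and 3.52 CPM in Vehicle. It was at 0 in 4 Endpoint mice with a highest value of 0.236 CPM, and at 18.4, 35.4, 2.75, 1.68 and 4.77 CPM in Rebound. Only Vehicle 54363 lay within the Endpoint range. Cxcr2 fell by 5.36 on the log2 scale (SE 1.18, adjusted p = 0.0024) and rose by 7.42 (SE 1.21, adjusted p = 0.000695). The change to Endpoint was -4.75 without Vehicle 57682 and -6.44 without Endpoint 49823, and the rise was 8.5 without that Endpoint library and 6.56 without Rebound 49059.

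Neutrophils carry Cxcr2 and Ccr1 and bear Gr1, which the TAM gate excluded. The 7 neutrophil markers (S100a8, S100a9, Retnlg, Camp, Ngp, Ltf and Mmp8) summed to 23.6 to 551.1 CPM in Vehicle TAM, 3.66 to 326.8 at Endpoint and 67.1 to 2224 in Rebound. The highest sums in Vehicle and Rebound were in 57682 and 49059, the mice with the highest Cxcr2 and Ccr1 in their groups. The lowest Vehicle sum was in 54363, which had the lowest Cxcr2. Endpoint 49823, 49830 and 49845 had sums of 326.8, 293.2 and 298.3 CPM, near those of Vehicle 57098 (309.6) and 64247 (336.4), with Cxcr2 at 0.236, 0.142 and 0 CPM. No neutrophil marker was at 0 throughout a TAM group. Their part in these results was not tested.

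Ccr3, the eotaxin receptor, had 11.9, 1.87, 27.4, 51.6 and 25.3 CPM in Vehicle, 0 (median 1.03) to 3.12 at Endpoint and 178.4, 297.3, 2.89, 27.3 and 61.2 in Rebound. Vehicle 54363 and Rebound 49827 fell within the Endpoint range. It fell by 4.3 on the log2 scale (SE 1.08, adjusted p = 0.00711) and rose by 6.56 (SE 1.16, adjusted p = 0.00161), or by 5.81 without Rebound 49059. Markers of mast cells and eosinophils (Cpa3, Mcpt4, Fcer1a, Epx and Prg2) summed to 41.4 CPM in Rebound 49041 and 8.33 in 49059, the mice highest in Ccr3, and to at most 5.09 CPM in the other TAM libraries. Their part in the level of Ccr3 was not tested.

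Ccrl2, which binds chemerin and does not signal, had smaller changes. It had 61.3, 44.1, 50.6, 53.5 and 43.3 CPM in Vehicle, 23.1 (median 25.1) to 32.8 at Endpoint and 47.4, 138.8, 50.6, 41.9 and 115 in Rebound. No Endpoint mouse reached another stage's range. The change to Endpoint was -0.95 (SE 0.264, adjusted p = 0.00997) and the rise to Rebound 1.59 (SE 0.266, adjusted p = 0.000648).

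Ccr6, the receptor of Ccl20, fell at Endpoint and was lower in Rebound than in Vehicle. It had 188.2, 152.1, 119.4, 124.9 and 50.6 CPM in Vehicle, 52.8 (median 61.5) to 92.9 at Endpoint and 41.6, 12.2, 62.3, 69.3 and 75.4 in Rebound. Vehicle 64247 lay below the Endpoint range and the other 4 Vehicle mice above it. The log2 difference between Rebound and Vehicle was -1.28 (SE 0.378, adjusted p = 0.0306), a call lost without Vehicle 54359 or 54363 or Rebound 49041 (adjusted p = 0.0748, 0.0571 and 0.0691). The change from Vehicle to Endpoint, -0.96 (SE 0.356, adjusted p = 0.0469), was lost without any of 9 single libraries (adjusted p from 0.0645 to 0.131).

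Cxcr4, which reads Cxcl12, had 6.71, 3.91, 10.7, 19.6 and 10.5 CPM in Vehicle, 12.5 (median 13.6) to 25.1 at Endpoint and 47.6, 82.7, 17.1, 17.9 and 34.5 in Rebound. The 3 highest values of the TAM sort were in Rebound 49041, 49059 and 49849. Rebound exceeded Vehicle by 1.95 on the log2 scale (SE 0.442, adjusted p = 0.00799) and Endpoint by 1.28 (SE 0.41, adjusted p = 0.0383). The second call was lost without any of 7 single libraries (adjusted p from 0.0589 to 0.161). Cxcr6, the receptor of Cxcl16 on T and NK cells, ranged from 1.37 to 2.84 CPM in Vehicle and 0.943 to 4.49 at Endpoint, with 43, 9.03, 3.16, 3.86 and 4.11 CPM in Rebound. Its excess in Rebound over Vehicle was 2.73 (SE 0.654, adjusted p = 0.0108), or 1.4 without Rebound 49041 (adjusted p = 0.0658). Against Endpoint the excess was 2.16 (SE 0.602, adjusted p = 0.0187), or 0.84 without that library (adjusted p = 0.225). Ccl5, made by T and NK cells, and Cxcr3, a receptor of activated T cells, were also higher in Rebound than at Endpoint, by 1.25 (SE 0.321, adjusted p = 0.0116) and 2.57 (SE 0.748, adjusted p = 0.0229). The call for Cxcr3 was lost without Rebound 49059 (adjusted p = 0.0797) or Endpoint 49825 (adjusted p = 0.0505). All 4 genes were highest in 49041 or 49059, the 2 TAM libraries with the most T and NK cell markers.

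With the 3 Rebound TAM libraries of 49041, 49059 and 49849 left out, 2 Rebound mice remained. From Endpoint to Rebound 8 members were then called instead of 18, and all 8 rose, where 4.16% of all genes were called in place of 17.6%. They were Ccl2 (2.56, adjusted p = 0.00585), Ccl7 (4.3, adjusted p = 0.0169), Ccl12 (1.69, adjusted p = 0.0169), Ccl3 (1.57, adjusted p = 0.0389), Ccl4 (1.62, adjusted p = 0.0316), Cxcl2 (4.95, adjusted p = 0.0269), Ccrl2 (0.82, adjusted p = 0.0337) and Cxcr2 (4.93, adjusted p = 0.0255). Ccr1 had 2.99 (adjusted p = 0.0536) and Ccl17 4.18 (adjusted p = 0.0526), whereas Cxcr4 had 0.09 and Cxcr6 0.32. From Vehicle to Rebound only Cxcl14 was then called, where 3.69% of all genes were called.

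In TC, members went both ways at Endpoint: receptors and ligands of lymphocytes were high in 4 of the 6 libraries, and the monocyte and neutrophil attractants Ccl2, Ccl7 and Cxcl1 were low. Of 29 members tested, 9 rose and 5 fell from Vehicle to Endpoint, where 28.7% of 14985 genes were called (14% higher and 14.8% lower). From Endpoint to Rebound 5 rose and 4 fell, where 25.1% were called (13.6% higher and 11.5% lower). Between Rebound and Vehicle edgeR called 0 members, where 0.0734% of genes were called. In that contrast 12 members had an unadjusted p under 0.05, and DESeq2 called 9 (6 higher and 3 lower), with 4% of all genes. The median log2 change of members was 1.61 for Endpoint against Vehicle, -1.78 for Rebound against Endpoint and -0.22 for Rebound against Vehicle, against 0.03, -0.04 and 0.04 over all genes. Ccl17, Ccl24, Cxcl2, Cxcl3 and Cxcr2 were too low in TC to be tested.

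Ccl5 gave the widest range. In TC Vehicle it had 6.74, 8.95, 8.71, 3.12 and 4.67 CPM. At Endpoint it ran from 6.42 (median 2568) to 6479 CPM, and in Rebound it was 3.9, 1.89, 1.28, 2253 and 2.69 CPM. The 4 Endpoint libraries rich in T and NK cell markers and the Rebound library of 49827 had 2131 CPM or more, and every other TC library had 22.3 CPM or less. Endpoint exceeded Vehicle by 8.71 on the log2 scale (SE 2.47, adjusted p = 0.0177).

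Cxcr6 and Cxcr3, receptors carried by activated T cells, split the libraries at the same place. Cxcr6 had 0.523, 2, 2.28, 0.828 and 3.33 CPM in Vehicle, 0.53 (median 1289) to 1818 at Endpoint and 1.89, 0.59, 2.67, 1096 and 1.83 in Rebound. Cxcr3 had 0.458, 0.399, 0.0387, 0.0789 and 0.222 CPM in Vehicle, 0 (median 184.9) to 264.9 at Endpoint and 0.126, 0.236, 0, 173 and 0.215 in Rebound. Endpoint mice 49843 and 49845 stayed within or near the Vehicle range for both genes. The log2 differences between Endpoint and Vehicle were 9.16 (SE 2.54, adjusted p = 0.0159) and 9.33 (SE 2.66, adjusted p = 0.0179).

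Xcl1, the lymphotactin of T and NK cells, had 14.3, 68.7, 66.5 and 59.7 CPM in Endpoint 49823, 49825, 49830 and 49831, and 25.7 CPM in Rebound 49827. Both other Endpoint libraries had 0, and Vehicle held 1 count in all, so the ratio of the pooled counts was 3386 with a 95% counting interval of 606 to 133891 (BLZ945 counts halved, adjusted p = 0.0127). Its exons overlap those of Gm20743. Ccr8, found on T cell subsets, was less even, with 6.44 CPM in Endpoint 49825, 14.5 in 49831, 1.59 in 49843 and 0 in the other 3, and 17.4 in Rebound 49827. Vehicle held 1 count of Ccr8, a pooled ratio of 354 (61.8 to 14136 with BLZ945 counts halved, adjusted p = 0.0203). Without Vehicle 57682, the library with that count, Ccr8 was not called (adjusted p = 0.0602). Ccr9, a gut-homing receptor that reads Ccl25, had 6.19 to 18 CPM in the 4 marker-rich Endpoint libraries, 15.1 in Rebound 49827 and at most 2.16 in the rest, and was not called (adjusted p = 0.164). Its exons overlap those of Slc6a20a and 2 further genes.

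**Figure D3:**
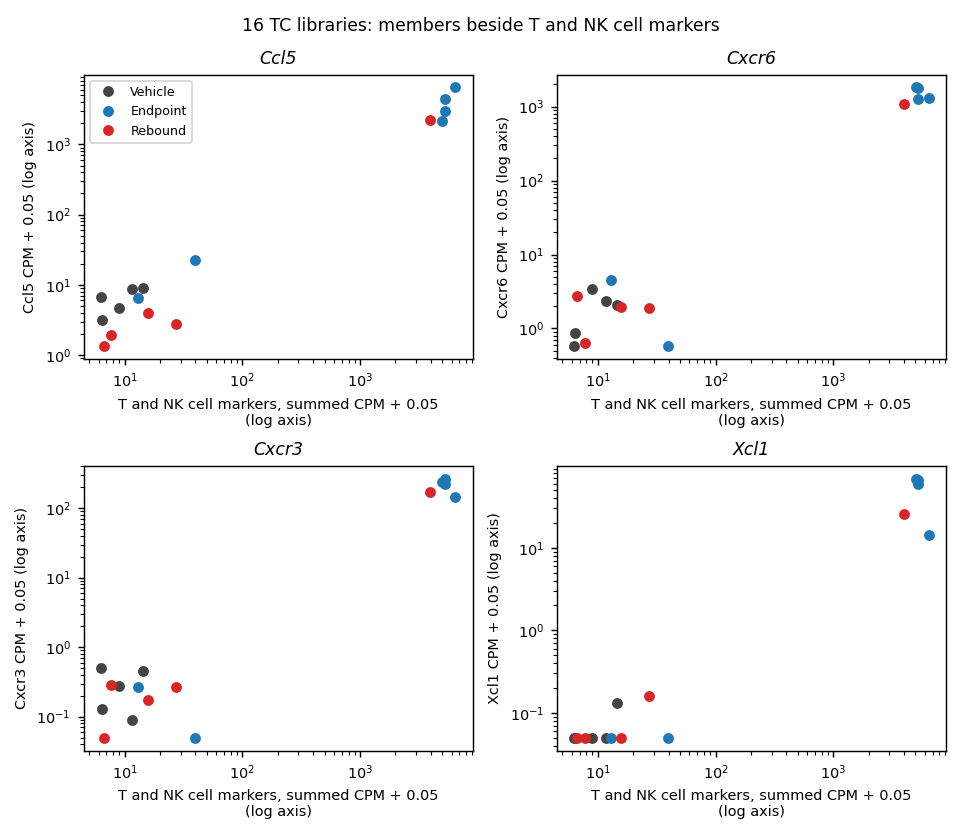
Each point is a TC library, with the summed CPM of 9 T and NK cell markers on the x axis and the CPM of Ccl5, Cxcr6, Cxcr3 or Xcl1 on the y axis (0.05 added, both axes log). Endpoint 49823, 49825, 49830 and 49831 and Rebound 49827 stand apart at the upper right, with marker sums of 3962 to 6482 CPM.

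Leaving out those 5 TC libraries left 2 Endpoint and 4 Rebound mice. From Vehicle to Endpoint 2 members were then called, Cxcl16 (3.1, adjusted p = 0.0219) and Ccl9 (4.78, adjusted p = 0.0244), where 7.21% of all genes were called in place of 28.7%. The 5 members that fell had -2.87 for Ccl2, -4.46 for Ccl7, -9 for Ccl22, -5.6 for Cxcl1 and -1.02 for Cx3cl1, none of them called (adjusted p = 0.164, 0.136, 0.0815, 0.179 and 0.192), and Cxcl12 had 1.9 (adjusted p = 0.111). Xcl1 and Cxcr3 were then too low to be tested. Ccl5 then had a log2 difference of 1.14 (adjusted p = 0.297) and Cxcr6 of 0.51 (adjusted p = 0.794). In the Rebound to Endpoint contrast 10 members were then called in place of 9, where 16.2% of all genes were called, and Ccl7 (adjusted p = 0.108), Ccl22 (adjusted p = 0.0905) and Cx3cl1 (adjusted p = 0.0626) were no longer among them. The T and NK cell markers and Ccl5, Cxcr3, Cxcr6, Xcl1 and Ccr9 were all higher in those 5 libraries than in any other TC library. Within the 5 the order differed, and Xcl1 was lowest in Endpoint 49823, which had the highest marker sum (6482 CPM). Whether the transcripts of these members came from T and NK cells in the PDGFRA sort was not tested.

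Among the attractants of monocytes and neutrophils in TC, Ccl2 was counted at 6.74, 30.8, 20, 3.2 and 18.1 CPM in Vehicle, 0.371 (median 2.16) to 3.18 at Endpoint and 7.05, 17, 1.07, 2.57 and 1.83 in Rebound. Endpoint 49843 reached up to the lowest Vehicle mouse without passing it. Ccl2 fell by 3.04 on the log2 scale (SE 0.806, adjusted p = 0.0118). Ccl7 had 10.8, 20.7, 5.65, 0.71 and 5.33 CPM in Vehicle, a median of 0 and a highest value of 0.947 at Endpoint, and 7.68, 23.5, 0.961, 0.184 and 1.08 in Rebound. It fell by 4.81 to Endpoint (SE 1.33, adjusted p = 0.0142; -4.21 without Vehicle 54363 and -5.74 without Endpoint 49825) and was 4.45 higher in Rebound (SE 1.31, adjusted p = 0.0212), a rise not called without Rebound 49059 (3.04, adjusted p = 0.0972).

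Cxcl1 was a gene of 3 Vehicle mice in the TC sort. It had 26.1, 109.9, 0.464, 0.0394 and 19.1 CPM in Vehicle, 0 (median 0) to 1.59 at Endpoint and 0.252, 0.118, 0.107, 0 and 0 in Rebound. Cxcl5 was high in the same 3 mice, with 20.1, 46.7, 0.116, 1.26 and 10.3 CPM, and so was Cxcl2, with 3.99, 10.1, 0.116, 0 and 2.17 CPM. These 3 mice, 54359, 54363 and 64247, also had the highest neutrophil marker sums of TC Vehicle, at 21.2, 75.4 and 33.8 CPM against 5.22 and 1.07 CPM. They had 7176, 13658 and 2577 summed CPM of astrocyte markers, against 3207 and 3747 CPM. The part of other cells in Cxcl1 was not tested. Cxcl1 fell by 6.26 on the log2 scale to Endpoint (SE 1.64, adjusted p = 0.0119), or -4.74 without Vehicle 54363, and its difference between Rebound and Vehicle was -8.19 (SE 1.92, adjusted p = 0.0971).

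Cx3cl1, the membrane-bound ligand of the microglial receptor Cx3cr1, had 22.1, 30.3, 52.2, 34 and 27.7 CPM in TC Vehicle. It ran from 10.6 (median 13.6) to 22.3 CPM at Endpoint and was 34, 66.4, 49.5, 13.2 and 28.8 CPM in Rebound. Only Endpoint 49845 reached the Vehicle range, by a small margin, and the low Rebound value was that of 49827. The change to Endpoint was -1.21 (SE 0.355, adjusted p = 0.0195), not called without Vehicle 57098 (adjusted p = 0.0607), and the rise to Rebound was 1.41 (SE 0.356, adjusted p = 0.00995). The tumour cell markers of these libraries moved the same way (253 to 1998 summed CPM at Endpoint, at least 2002 elsewhere), and their part was not tested. Ccl22 had 0.0654, 12.3, 0.928, 1.46 and 4.89 CPM in Vehicle, 2 counts in 1 of 6 Endpoint libraries and 0.59 to 2.67 CPM in Rebound. Pooled counts were 72.2 times higher in Vehicle (95% counting interval 12.9 to 2861) and 40.9 times higher in Rebound (7.12 to 1639) than at Endpoint, with BLZ945 counts halved for the interval and adjusted p of 0.00289 and 0.00849.

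Cxcl12, the stromal ligand of Cxcr4, rose in TC from 6.74, 9.11, 9.98, 2.96 and 2.39 CPM in Vehicle to between 18.6 and 98 CPM (median 34.9) at Endpoint. In Rebound it was 64.9, 19.9, 14, 4.41 and 10 CPM. Vehicle and Endpoint did not overlap, and the rise was 2.87 (SE 0.659, adjusted p = 0.0056). Markers of pericytes and fibroblasts (Col1a1, Col1a2, Dcn, Lum, Pdgfrb and Rgs5) summed to 10.6 to 117.7 CPM in Vehicle, 234.7 to 906.6 at Endpoint and 88.9 to 5490 in Rebound. The highest Cxcl12 of Endpoint (49830) and of Rebound (49041) were in the libraries with the highest sums of their groups. From Endpoint to Rebound, however, 4 of these 6 markers rose and 0 fell, whereas Cxcl12 had -1.01 (SE 0.61, adjusted p = 0.23). The 7 endothelial markers (such as Cldn5) summed to 6.93 to 46.65 CPM in Vehicle, 38.7 to 280.5 at Endpoint and 11.2 to 67.9 in Rebound. The part of either cell type in Cxcl12 was not tested. Cxcr4 itself had 0.589 to 2.17 CPM in TC Vehicle and 0 (median 11.9) to 18.6 at Endpoint, a rise of 2.96 (SE 0.976, adjusted p = 0.0323) that was lost without any of 7 single libraries (adjusted p from 0.0505 to 0.0753).

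Ccl11, the eotaxin of fibroblasts, was the chemokine of Rebound TC. It had 0, 2, 1.35, 1.74 and 2.22 CPM in Vehicle, 0 (median 0.964) to 4.28 at Endpoint and 92, 119.3, 34.5, 1.65 and 24.8 in Rebound. The 4 Rebound mice other than 49827 lay above all other TC libraries. Rebound exceeded Endpoint by 5.29 on the log2 scale (SE 1.25, adjusted p = 0.00771), or by 5.96 without Endpoint 49830. Against Vehicle the difference was 5.21 and missed the threshold (SE 1.32, adjusted p = 0.122), and it was called without Rebound 49827 (5.52, adjusted p = 0.0137). Ccl8, which was also a TAM gene, behaved alike in TC with 0.0654 to 1.31 CPM in Vehicle, at most 0.53 at Endpoint and 17.2, 11.3, 6.19, 0.735 and 6.46 in Rebound. It exceeded Endpoint by 6.28 (SE 1.26, adjusted p = 0.00315), or by 7.25 without Endpoint 49843, and Vehicle by 4.2 (adjusted p = 0.0405) once 49827 was left out. The pericyte and fibroblast markers stood at 5490, 2472, 1525, 88.9 and 766.7 CPM in the 5 Rebound libraries, so that Ccl11 and Ccl8 were lowest where the markers were lowest. Their part was not tested.

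Without Rebound 49827, 7 members were called between Rebound and Vehicle TC in place of 0, where 3.85% of all genes were called in place of 0.0734%. Ccl11 and Ccl8 were higher, and Ccl12 (-3.49, adjusted p = 0.0428), Ccl3 (-5.67, adjusted p = 0.0464), Ccr6 (-6.42, adjusted p = 0.0191), Cxcl1 (-7.95, adjusted p = 0.0403) and Cxcl13 (-5.77, adjusted p = 0.0259) were lower. From Endpoint to Rebound 18 members were then called in place of 9, where 36.9% of all genes were called in place of 25.1%. The library had 826.9 summed CPM of myeloid markers, against 22.6 to 55 in the other 4, besides its T and NK cell markers.

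Of the chemokines most abundant in TAM, Ccl9 and Cxcl16 rose in TC from Vehicle to Endpoint. Ccl3 (1.49, adjusted p = 0.461), Ccl4 (3.23, adjusted p = 0.124), Ccl6 (1.61, adjusted p = 0.181), Ccl12 (-1.04, adjusted p = 0.336) and Cxcl13 (2.92, adjusted p = 0.119) were not called. Ccl9 had 3.47, 3.51, 3.13, 0.789 and 7.28 CPM in Vehicle, 14 (median 43.4) to 169.2 at Endpoint and 0 to 3.02 in Rebound, with no overlap of Endpoint with another stage. It rose by 4.24 on the log2 scale (SE 0.97, adjusted p = 0.00593) and then fell by 6.04 (SE 1.07, adjusted p = 0.00178), with -7.01 for that fall without Rebound 49041. Cxcl16 rose by 2.42 (SE 0.715, adjusted p = 0.0203) from 3.27 to 21.5 CPM in Vehicle to 24 to 155.3 CPM at Endpoint, and fell by 3.45 (SE 0.754, adjusted p = 0.00496) to 1.51 to 16.3 CPM in Rebound. Cxcl13 had 66 to 2336 CPM at Endpoint against 0.708 to 46.5 in Rebound, a fall of 5.85 (SE 1.58, adjusted p = 0.0151), and Ccl6 fell by 3.25 (SE 0.947, adjusted p = 0.0212). For Ccl6 the call was lost without Rebound 49059 (adjusted p = 0.0561) or 49692 (adjusted p = 0.0573). Endpoint 49843, which had 7097 summed CPM of myeloid markers, was the highest TC library for Ccl6, Cxcl13 and Cxcl16 but not for Ccl9. Without it the rise of Cxcl16 was 1.78 and the changes of Ccl6, Cxcl13 and Cxcl16 to Rebound were -2.02, -4.59 and -2.81. Without Rebound 49827 these changes were -4.04, -8.69 and -4.57.

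Set against the TAM library of the same mouse, these TC levels differed between genes and mice. The myeloid markers in TC were 3.31 to 23.7% of those in TAM in the 6 Endpoint mice, on the jointly scaled CPM. Ccl6 stood at 2.84 to 32.3%, Ccl12 at 3.89 to 23.3% and Cxcl13 at 5.08 to 25.9%. Ccl9 stood at 142% in 49823, 44.1% in 49825, 15.7% in 49830, 22.8% in 49831, 24.5% in 49843 and 223% in 49845, against 3.31, 3.68, 5.01, 7.7, 23.7 and 4.08% for the markers. Only in 49843 was the share of Ccl9 close to that of the markers. The choroid plexus and ependymal markers (Ttr, Folr1, Kl, Kcnj13, Foxj1 and Prlr) summed to 76487, 43276, 24572, 25946, 6433 and 219282 CPM in the same 6 TC libraries. Outside 49843, Ccl9 and this sum put the 5 libraries in the same order, and the part of choroid plexus cells in Ccl9 was not tested. Ccrl2 stood at 21.8, 78.1, 103, 42.5, 24.4 and 5.14% in these mice, Ccr6 at 1.55, 36.8, 4.7, 23.6, 27.6 and 1.45%, and Cxcl16 at 10.4, 7.81, 13.1, 15.9, 35 and 5.28%. In the same order Cxcl13 stood at 5.52, 5.08, 8.5, 10.1, 25.9 and 7.25%, and Ccl12 at 3.89, 8.75, 8.99, 5.88, 23.3 and 8.17%. Ccrl2, Cxcl13 and Cxcl16 were thus above the marker share in all 6 mice, and Ccr6 in 49825, 49831 and 49843. Ccl12 was above it in 49823, 49825, 49830 and 49845, and Ccl6 in every mouse but 49823.

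**Figure D4:**
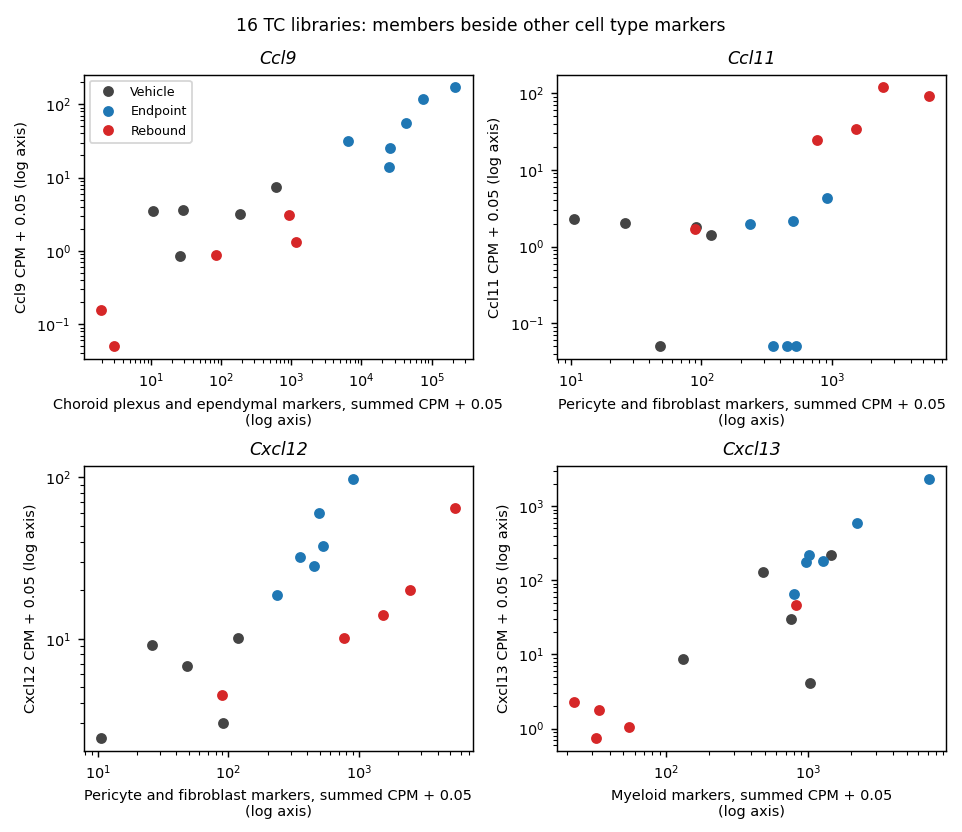
Points are the 16 TC libraries, with the summed CPM of a marker list on the x axis and the CPM of Ccl9, Ccl11, Cxcl12 or Cxcl13 on the y axis (0.05 added, both axes log). Ccl9 reaches 169.2 CPM in the Endpoint library with 219282 summed CPM of choroid plexus and ependymal markers, and Ccl11 reaches 24.8 CPM or more only in 4 Rebound libraries.

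Between the sorts, the ligands Ccl2, Ccl3, Ccl4, Ccl6, Ccl8, Ccl9, Ccl12, Ccl17, Ccl24, Cxcl13 and Cxcl16 and the receptors Ccr1, Cxcr4, Ccr3, Ccr6, Cxcr2 and Ccrl2 were higher in TAM in Vehicle and Rebound, while Cxcl12, Cx3cl1, Ccl11 and Ccl25 were higher in TC at each stage. The Rebound call of Ccl25 (log2 difference -1.32, adjusted p = 0.0387) was lost without any of 6 single libraries (adjusted p from 0.0644 to 0.1), and without the T and NK marker libraries (-0.83, adjusted p = 0.274). Ccl7 was not called at any stage (adjusted p = 0.165, 0.861 and 0.0556). At Endpoint the differences of the ligands Ccl3 (0.35, adjusted p = 0.782), Ccl4 (-0.81, adjusted p = 0.534), Ccl9 (0.55, adjusted p = 0.455) and Ccl17 (1.14, adjusted p = 0.476) were not called. Nor were those of the receptors Ccr3 (1.52, adjusted p = 0.319), Cxcr2 (-0.58, adjusted p = 0.737), Cxcr4 (1.08, adjusted p = 0.171) and Ccrl2 (1.11, adjusted p = 0.147). In Vehicle, 18 of 33 tested members were higher in TAM and 7 in TC, where 54.8% of 15668 genes were called (25.6% higher and 29.2% lower in TAM). At Endpoint the counts were 10 and 12, where 51.1% were called (18.7% and 32.4%), and in Rebound 19 and 4, where 47.8% were called (20.4% and 27.4%). The median log2 difference of TAM and TC over members was 3.73, -0.34 and 4.18 at the 3 stages, against -0.12, -0.19 and -0.16 over all genes. Without the T and NK marker libraries 13 members were called at Endpoint (42.6% of all genes) and 21 in Rebound (35.4%), and Ccl8 (0.76, adjusted p = 0.753), Ccl22 (1.75, adjusted p = 0.333) and Cxcl2 (2.96, adjusted p = 0.17) lost their Rebound calls. Leaving out 1 library ended the Vehicle calls of Ccl5, Ccl11, Cxcl1 and Cxcl5, the Endpoint calls of Ccl8 (TAM 49823, adjusted p = 0.386), Cxcl5, Cxcl13 and Ccr9, and the Rebound calls of Ccl8 (TAM 49041, adjusted p = 0.0734) and Ccl22 (TAM 49059, adjusted p = 0.0935).

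**Figure D5:**
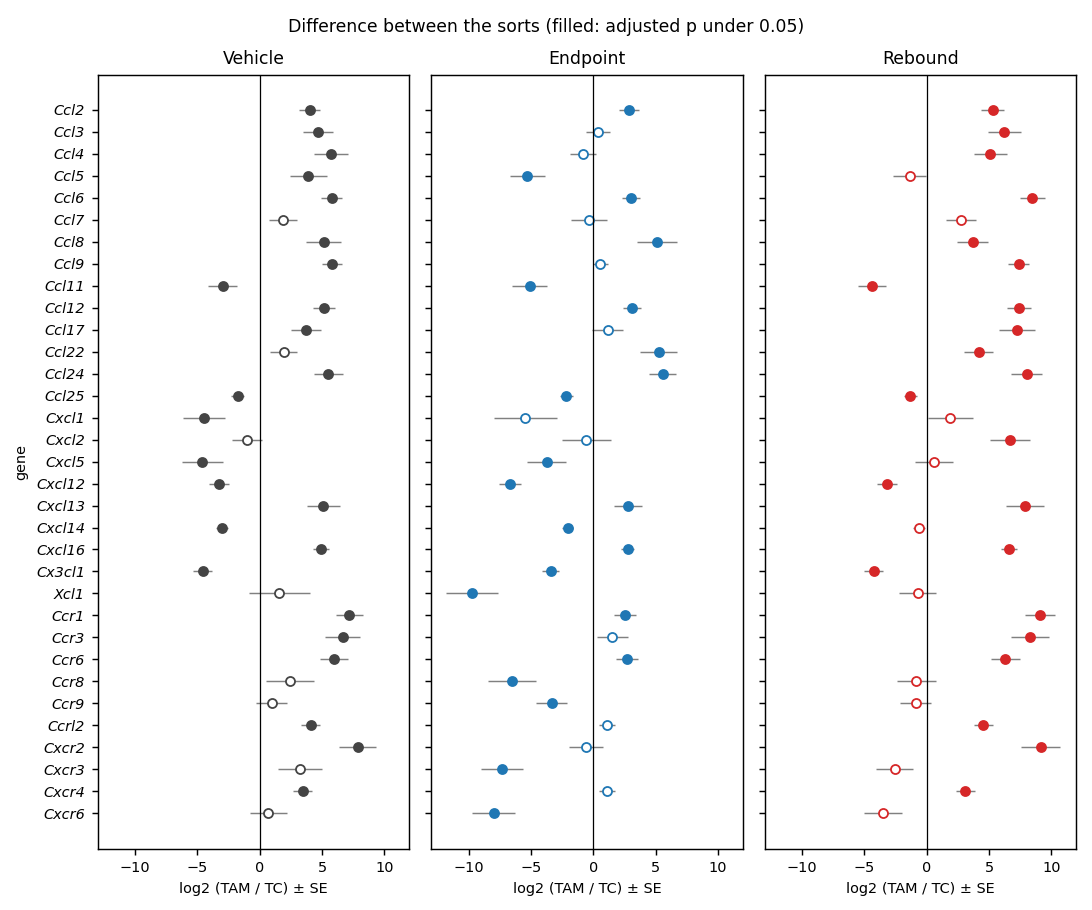
Points give the log2 ratio of TAM to TC with its standard error for 33 genes in Vehicle, Endpoint and Rebound, and filled points passed an adjusted p of 0.05. Ccr1, Ccl6, Ccl12 and Cxcl16 lie right of 0 at each stage, and Cxcl12, Cx3cl1, Ccl11 and Ccl25 left of it.

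Ccr1 had 192 ± 171.7 (SD, n = 5) jointly scaled CPM in TAM and 1.3 ± 1.35 in TC of Vehicle mice, a log2 difference of 7.2 (SE 1.08, adjusted p = 2.02e-06). Ccl6 had 796.3 ± 453.6 and 14.7 ± 8.93 CPM (5.77, SE 0.868, adjusted p = 2.28e-06). Ccl12 had 1335 ± 581.5 and 37.9 ± 24.8 CPM (5.14, SE 0.861, adjusted p = 1.1e-05), and Cxcl16 260.3 ± 75.4 and 8.7 ± 5.86 CPM (4.91, SE 0.619, adjusted p = 1.24e-07). TAM and TC did not overlap for these 4 genes in Vehicle. In the Rebound mice the differences were wider, at 9.07 for Ccr1 (adjusted p = 4.24e-07), 8.47 for Ccl6 (adjusted p = 5.6e-08), 7.4 for Ccl12 (adjusted p = 3.38e-07) and 6.59 for Cxcl16 (adjusted p = 5.67e-09). Whether Rebound and Vehicle differed in this respect was tested as the difference of the TAM and TC responses, which was called for 0 of 33 members (adjusted p under 0.05 in edgeR, background 0.517%). At an unadjusted p under 0.05 there were 10, and DESeq2 called Cxcl14 and Cxcl2, with 2.39% of all genes. Without TC Rebound 49827 the difference was called for Cxcl16, Ccl6, Ccl3, Ccr6, Cxcl2 and Cxcl13, where 3.8% of all genes were called. Of the 4 genes above, Cxcl16 then had 2.78 (adjusted p = 0.0102) and Ccl6 3.48 (adjusted p = 0.0476). Ccr1 (2.25, adjusted p = 0.399) and Ccl12 (2.97, adjusted p = 0.105) were not called.

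On the TC side, Cx3cl1 had 27.8 ± 9.88 CPM in TC and 1.15 ± 0.827 in TAM of Vehicle mice (SD, n = 5), a log2 difference of -4.59 (SE 0.763, adjusted p = 8.97e-06). It remained a TC gene at Endpoint (-3.41, adjusted p = 0.000121) and in Rebound (-4.25, adjusted p = 2.9e-05). Its receptor Cx3cr1 is not in the set and is the classical microglial one. Cxcl14 had 47.6 ± 27.2 CPM in TC and 5.79 ± 4.14 in TAM of Vehicle mice (-3.04, SE 0.501, adjusted p = 7.68e-06). In Rebound the sorts overlapped for Cxcl14 (27.6 ± 7.1 against 17.9 ± 10.3 CPM), with -0.62 and adjusted p = 0.283, or -0.99 and 0.0408 with the mouse as a block. Ccl25, a ligand of Ccr9, was higher in TC in Vehicle (log2 difference -1.77, adjusted p = 0.00556), with exons that overlap Elavl1.

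Ligand and receptor lay in opposite sorts for Cxcl12 and Cxcr4 in Vehicle mice. Cxcl12 had 5.21 ± 2.93 CPM in TC and 0.535 ± 0.52 in TAM (-3.27, SE 0.824, adjusted p = 0.00129). Cxcr4 had 13.1 ± 7.59 CPM in TAM and 1.19 ± 0.634 in TC (3.44, SE 0.778, adjusted p = 0.000435). In Rebound the same held, with -3.21 for Cxcl12 (adjusted p = 0.00148) and 3.07 for Cxcr4 (adjusted p = 0.00132). At Endpoint Cxcl12 had a log2 difference of -6.65 (adjusted p = 4.73e-07) and Cxcr4 did not differ by the test (1.08, SE 0.651, adjusted p = 0.171). The eotaxin Ccl11 (TC) and its receptor Ccr3 (TAM) were likewise apart in Rebound, at 44.9 ± 40.7 CPM in TC and 138 ± 151.3 CPM in TAM. Their log2 differences between TAM and TC were -4.38 (SE 1.14, adjusted p = 0.00224) and 8.27 (SE 1.52, adjusted p = 5.04e-05). Ccl24, the other eotaxin of the set, shared the TAM sort with Ccr3 in Rebound. It had 30.9 ± 24.9 CPM in TAM and 0.127 ± 0.184 in TC (8, SE 1.26, adjusted p = 5.48e-06). In Vehicle, Ccl11 had a difference of -2.97 (adjusted p = 0.0335), which was not called with the mouse as a block (-2.69, adjusted p = 0.0666).

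Ccl6, Ccl9 and their receptor Ccr1 shared a sort and were all TAM genes in Vehicle and Rebound. Cxcl16 was a TAM gene at each stage, and its receptor Cxcr6 was higher in TC at Endpoint (852.7 ± 686.1 against 3.32 ± 1.74 CPM, -7.99, SE 1.71, adjusted p = 0.000314). Without the T and NK marker libraries the Cxcr6 difference was 0.61. At Endpoint Ccl5 was higher in TC (log2 difference -5.28, adjusted p = 0.00323), and not called with the mouse as a block (-4.01, adjusted p = 0.0736). Without the T and NK marker libraries Ccl5 was called higher in TAM (2.31, adjusted p = 0.00117). Ccr8 and Ccr9 also lost their calls with the block (adjusted p = 0.0623 and 0.194), and so did Ccl8, which was higher in TAM by 5.1 (adjusted p = 0.0103) and with the block by 3.61 (adjusted p = 0.137). Cxcl1, at 0 in all 6 TAM Endpoint libraries, was called lower in TAM with the block (adjusted p = 0.028 against 0.0797). In Rebound the block ended the calls of Cxcl2 (adjusted p = 0.0583) and Ccl22 (adjusted p = 0.0815).

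The stage response differed between the sorts for 15 of 33 members from Vehicle to Endpoint, all lower in TAM relative to TC, where 25.7% of genes were called. With the mouse as a block, where 22.2% of genes were called, the count was 8 (Ccl4, Ccl5, Ccl9, Cxcl16, Xcl1, Ccr1, Cxcr3 and Cxcr6). From Endpoint to Rebound it differed for 14 members, all higher in TAM relative to TC, where 20.6% of genes were called, and for 12 with the block, where 14.8% were called. Ccl17 (adjusted p = 0.258), Ccr3 (adjusted p = 0.085) and Ccrl2 (adjusted p = 0.0686) lost that call with the block and Ccl5 gained it. Without the T and NK marker libraries the counts were 6 (14.7% of all genes) and 11 (12.8%). Ccr1 showed the first difference at -4.66 (adjusted p = 0.00754) and the second at 6.53 (adjusted p = 0.0013).

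The other chemokine ligands and receptors measured in these files, 27 in the table, were tested where their counts allowed. In TAM 0 rose and 6 fell of 16 tested from Vehicle to Endpoint, and 7 rose and 0 fell from Endpoint to Rebound, where 33% and 17.6% of all genes were called. Ccr2, the monocyte receptor of Ccl2, Ccl7 and Ccl12, had 219.5 ± 314.3 CPM in Vehicle, 17.4 ± 14.3 at Endpoint and 228.2 ± 188.5 in Rebound TAM, with log2 changes of -3.65 (SE 0.879, adjusted p = 0.0054) and 3.71 (SE 0.881, adjusted p = 0.00977). Cxcr7, the scavenger of Cxcl12, fell from 4.1 ± 2.33 to 0.164 ± 0.268 CPM (-4.61, SE 0.956, adjusted p = 0.00127), and Ccr7, the receptor of migrating dendritic cells, rose from 2.51 ± 2.35 at Endpoint to 38.7 ± 41.9 CPM in Rebound (3.98, SE 0.748, adjusted p = 0.00212). Without the T and NK marker libraries the rise of Ccr2 was not called (2.13, adjusted p = 0.304), and that of Ccr7 was (2.83, adjusted p = 0.0316). In TC 2 of 14 tested rose to Endpoint (Ccr2 and Ccr7), where 28.7% of all genes were called. Neither was called without the T and NK marker libraries (0.74, adjusted p = 0.658, and 1.4, adjusted p = 0.537). Toward Rebound 1 rose (Cxcr7, which was not called without these libraries, 1.02, adjusted p = 0.28) and 3 fell in TC, where 25.1% of all genes were called, Cx3cr1 by 3.16 (SE 0.906, adjusted p = 0.0201) and Pf4 by 3.99 (SE 1.3, adjusted p = 0.033) among them.

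Of 40 genes that carry the signal behind these receptors, 6 rose and 10 fell in TAM from Vehicle to Endpoint, 11 rose and 4 fell from Endpoint to Rebound, and 3 rose and 5 fell from Vehicle to Rebound, where 33%, 17.6% and 14.7% of all genes were called. Fgr, a Src family kinase of myeloid cells, fell from 216.7 ± 59 to 28.9 ± 14.5 CPM (-2.91, SE 0.301, adjusted p = 3.23e-06), and Rgs2, which shortens G protein signals, rose from 187.4 ± 47.5 to 423.3 ± 85.3 CPM (1.18, SE 0.198, adjusted p = 0.000234). Rgs18 rose from 1.3 ± 0.773 at Endpoint to 33.4 ± 34.3 CPM in Rebound (4.67, SE 1.04, adjusted p = 0.00632), but was not called without the T and NK marker libraries (1.54, adjusted p = 0.425), and Pak1 fell from 122.5 ± 13.2 to 65.8 ± 17.7 CPM (-0.9, SE 0.194, adjusted p = 0.00368). In TC 11 rose and 2 fell of 39 tested from Vehicle to Endpoint, 3 rose and 5 fell from Endpoint to Rebound, and 0 were called between Vehicle and Rebound, where 28.7%, 25.1% and 0.0734% of all genes were called. Among these Rgs1, a regulator abundant in lymphocytes, rose from 1.79 ± 0.305 to 104 ± 79.5 CPM (5.85, SE 1.58, adjusted p = 0.0141; 1.95, adjusted p = 0.241, without the T and NK marker libraries), and the G protein subunit Gnb4 fell from 169.1 ± 32.4 to 22.5 ± 22.8 CPM (-2.92, SE 0.473, adjusted p = 0.000916).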

How the data were processed

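Cells of 2 sorts from 17 mice gave 32 RNA sequencing libraries. The deposited values are raw counts of reads, 1 row for each gene symbol, not normalized by the authors. The submitters' processing notes name STAR 2.3.0e, SAMtools and the build mm10. How genes were counted, and on which annotation, is not stated in the sources at hand. All 22 libraries of BLZ945 mice hold even counts only, and the 10 vehicle libraries do not. Changes from Vehicle are confounded with this, so BLZ945 counts were also halved as an alternative. The library kit does not mark strand.

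Genes kept by filterByExpr were scaled by TMM and tested with edgeR 4.0.16 in R 4.3.3 (glmQLFit with robust fitting, glmQLFTest, two-sided, Benjamini-Hochberg adjustment, 0.05). The 16 libraries of a sort entered 1 fit, and comparisons of the sorts came from a fit of all 32. Standard errors come from the F statistic. Replicates are different mice. Of these, 15 gave both sorts, so the mouse as a block pairs the sorts. Deviations of the paired libraries correlated at 0.01 to 0.4 (median 0.09) over 12863 genes. No libraries agreed within sampling noise. Alternatives were RLE factors, DESeq2 1.42.0, no filter, the 2 groups alone and leaving out each library. A further one, chosen after seeing the data, left out the 8 libraries highest in T and NK cell markers within their sort. The cut-off on the summed markers was higher in TC than in TAM. The fits were also run on simulated counts, for TAM Endpoint against Vehicle and for the sorts in Vehicle only. These simulations held no libraries rich in T and NK cell markers and no even-only counts, so they cannot speak to either. Counting intervals (95%, exact) and limits cover counting error only.

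The members, marker lists and gene lists were chosen with earlier results of these data known. Every member is accounted for. For members called in a stage contrast of the sort where their mean was higher, most values are given by library, with the 6 Endpoint libraries by lowest, median and highest, and others by range. Of other chemokine genes and signalling genes, up to 2 with the largest change in each direction of a stage contrast could be named. Promoters and coordinates come from RefSeq (GRCm38.p6) and GENCODE M21 (GRCm38), and motifs were searched in the 250 bases before the start. Figures were drawn with matplotlib 3.10.9.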

Additional observations from a re-analysis of the deposited data

Results flagged for a closer look

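Of 171 groups of libraries examined over the members, 18 held 1 library far from the others by Dixon's criterion, where 8.6 are expected at 1 in 20. In TAM Vehicle these were mouse 57098 for Ccl2 (392 CPM) and Ccl7 (64.4 CPM), mouse 54359 for Ccl9 (255 CPM) and Ccl17 (10.6 CPM), and mouse 64247 for Cxcl13, which was low at 23.4 CPM. In TAM Endpoint, 49845 was low for Ccl5 (28.9 CPM) and was the 1 library with Cxcl2 (0.108 CPM), and 49830 had 0 CPM of Cx3cl1. In TAM Rebound, 49059 was high for Ccl4 (640 CPM). In TC Vehicle, 54359 had 0 CPM of Ccl11 and 54363 was the 1 library with Xcl1 (0.0799 CPM). In TC Endpoint, 49830 was low for Cxcl14 (17.1 CPM) and 49845 had 0 CPM of Cxcr4. TC Rebound 49827 stood apart for Ccl5 (2253 CPM), Cxcl13 (46.5 CPM), Xcl1 (25.7 CPM), Cxcr3 (173 CPM) and Cxcr6 (1096 CPM).

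The response to stage differed between TAM and TC by an edgeR interaction test without a mouse term. With the mouse as a block, Ccl3, Ccl6, Cxcl12, Ccr3, Ccr8, Ccrl2 and Cxcr2 were not called from Vehicle to Endpoint (adjusted p from 0.0532 to 0.225), nor Ccl17, Ccr3 and Ccrl2 from Endpoint to Rebound (adjusted p from 0.0686 to 0.258). Leaving out 1 library ended 8 of the 15 calls from Vehicle to Endpoint and 6 of the 14 from Endpoint to Rebound. The log2 response of TAM minus that of TC from Vehicle to Endpoint was negative for Ccl3 (-4.35, adjusted p = 0.0295), Ccl4 (-6.5, adjusted p = 0.0051), Ccl5 (-9.16, adjusted p = 0.00218), Ccl6 (-2.72, adjusted p = 0.0394), Ccl9 (-5.25, adjusted p = 0.000239), Cxcl12 (-3.38, adjusted p = 0.0235), Cxcl16 (-2.14, adjusted p = 0.0288), Xcl1 (-11.31, adjusted p = 0.0315), Ccr1 (-4.66, adjusted p = 0.00754), Ccr3 (-5.13, adjusted p = 0.0382), Ccr8 (-8.96, adjusted p = 0.0192), Ccrl2 (-2.97, adjusted p = 0.0218), Cxcr2 (-8.43, adjusted p = 0.00307), Cxcr3 (-10.57, adjusted p = 0.00234) and Cxcr6 (-8.68, adjusted p = 0.00484). From Endpoint to Rebound it was positive for Ccl3 (5.86, adjusted p = 0.00847), Ccl4 (5.89, adjusted p = 0.0118), Ccl6 (5.43, adjusted p = 0.000635), Ccl9 (6.8, adjusted p = 7.31e-05), Ccl12 (4.32, adjusted p = 0.00438), Ccl17 (6.07, adjusted p = 0.022), Cxcl12 (3.44, adjusted p = 0.0228), Cxcl13 (5.09, adjusted p = 0.0264), Cxcl16 (3.82, adjusted p = 0.000781), Xcl1 (8.98, adjusted p = 0.0134), Ccr1 (6.53, adjusted p = 0.0013), Ccr3 (6.75, adjusted p = 0.0112), Ccrl2 (3.43, adjusted p = 0.0123) and Cxcr2 (9.72, adjusted p = 0.00136). Fitted values of genes with groups at or near 0 counts, such as Xcl1, Ccr8 and Cxcr2, depend on the prior count.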

How the results depend on the processing

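For the 160 pairs of member and contrast that were called and 9 others named, 2860 of 3140 alternative values kept direction and side of the threshold, 249 lost a call, 24 gained one and 7 reversed. Of 4148 alternative values of pairs that were not called, 134 were called. Without the T and NK marker libraries, which leaves 2 TC Endpoint and 2 TAM Rebound mice and fewer samples to test, 1 member was called in TAM Rebound against Vehicle, 8 in TAM Rebound against Endpoint, 2 in TC Endpoint against Vehicle, 4 in TC Rebound against Vehicle and 13 between the sorts at Endpoint. The differences of response were then called for 6 members (Vehicle to Endpoint) and 3 (Vehicle to Rebound). The reversed values arose there: Cxcl2 in TAM Rebound against Vehicle (-0.3), Ccl5 (2.31, called higher in TAM), Ccr9 (6.56), Cxcr6 (0.61) and Cxcr3 (2.69) between the sorts at Endpoint, and Ccr3 in the differences of response (0.94 from Vehicle to Endpoint and -0.85 from Endpoint to Rebound). The cause of these reversals was not tested. DESeq2 called 9 members in TC Rebound against Vehicle and 2 for the difference of response from Vehicle to Rebound, which was called for 1 with BLZ945 counts halved. The 2-group fit called 2 in TAM Rebound against Vehicle. With the mouse as replicate block, the difference of response from Vehicle to Endpoint was called for 8 members in place of 15, and that from Endpoint to Rebound for 12 in place of 14. Between the sorts the block changed the calls named in the report and no other. Leaving out 1 library gave 11 to 13 called members in TAM Endpoint against Vehicle, 3 to 8 in TAM Rebound against Vehicle (3 without Vehicle 54363), 14 to 20 in TAM Rebound against Endpoint, 10 to 14 in TC Endpoint against Vehicle, 0 to 7 in TC Rebound against Vehicle and 7 to 18 in TC Rebound against Endpoint, with the highest of the last 2 ranges without 49827. Between the sorts the ranges were 23 to 25 in Vehicle, 19 to 22 at Endpoint and 21 to 26 in Rebound. The differences of response gave 11 to 18 (Vehicle to Endpoint), 0 to 6 (Vehicle to Rebound, 6 without TC Rebound 49827) and 12 to 21 (Endpoint to Rebound). Depth limits genes under the 3-count level, 0.0247 to 0.0651 CPM over a group, or 0.0676 to 0.13 CPM for 6 counts in the BLZ945 groups, which hold even counts.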
